A study of Mus musculus with 12 samples.

Results

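The Zfp genes are the mouse genes named as zinc finger proteins, and most of them encode DNA-binding proteins built from repeated C2H2 fingers. The genes described here were chosen by symbol and level: protein-coding genes whose symbol is Zfp followed by digits only, with a mean of 1 FPKM or more over the GSH and WT libraries. FPKM give the fragments of a gene relative to its transcript length and to the library's depth. By that rule 237 of the 358 Zfp genes listed in the GSH and WT table were members, and the other 121 had lower means. None of the 358 was at 0 in all 6 libraries. The members are 237 of 12283 genes that reached the same mean. Level therefore chose the members and is given as a description, and the rule took the mean over both groups. Of the members, 6 had a mean of 1 FPKM or more only in WT and 2 only in GSH.

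All libraries carry the label 4T1, a mouse mammary carcinoma cell line, with culture as the treatment. The genotypes are GSH (3 libraries), WT (3 libraries), Cas9 (3 libraries) and Ctrl, of which the library Ctrl 3 was used. The other Ctrl libraries were not analysed here. The labels neither spell out GSH nor name a gene targeted in the Cas9 cells, so no targeted gene could be checked, and they do not say whether a genotype is 1 clone. They also do not say whether replicates were separate cultures, so the p-values measure the spread between these libraries, which may be technical. Depth was 18531444 to 30168737 reads in the GSH and WT libraries and 33152215 to 39201544 reads in the Cas9 and Ctrl libraries.

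In a C2H2 finger, a pair of cysteines and a pair of histidines hold a zinc ion, and the helix between them reads a few bases of DNA. Many Zfp proteins also carry a KRAB box, which recruits the corepressor Trim28 and, through it, the histone methyltransferase Setdb1, to silence transposable elements and imprinted genes. KRAB zinc-finger genes multiply by local duplication and often stand next to each other in the genome. A few Zfp symbols belong to other proteins, among them the mRNA-decay factor Zfp36, whose fingers are of the CCCH kind and bind RNA.

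The defining letters of these domains are shown for the members on which the comparison turned, as coding-strand DNA read 5′ to 3′ from GENCODE M21 transcripts (build GRCm38). The KRAB boxes belong to the pair of genes with the largest falls in GSH on the log2(FPKM + 1) scale and to 2 members with known silencing roles. Capitals mark the codons that matched the KRAB A-box core pattern.
Zfp760 KRAB A-box core, chr17:21720950-21720994, plus strand, exon 5 of 6: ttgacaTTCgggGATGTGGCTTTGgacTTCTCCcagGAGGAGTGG
Zfp7 KRAB A-box core, chr15:76881118-76881162, plus strand, exon 3 of 5: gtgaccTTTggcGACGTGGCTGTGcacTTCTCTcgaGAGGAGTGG
Zfp57 KRAB A-box core, chr17:37006074-37006118, plus strand, exon 2 of 3: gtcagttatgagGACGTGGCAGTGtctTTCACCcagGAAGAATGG
Zfp809 KRAB A-box core, chr9:22235026-22235070, plus strand, exon 2 of 6: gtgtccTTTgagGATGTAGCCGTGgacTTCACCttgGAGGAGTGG
In the fingers, capitals mark the codons of the zinc-holding cysteines and histidines. They show the first C2H2 finger lying within 1 exon in Zfp760, in Zfp7 and in the most abundant member. The first CCCH finger is that of the member with the largest rise.
Zfp760 C2H2 finger, chr17:21722473-21722535, plus strand, exon 6 of 6: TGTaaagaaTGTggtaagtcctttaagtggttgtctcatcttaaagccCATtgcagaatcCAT
Zfp7 C2H2 finger, chr15:76890339-76890401, plus strand, exon 5 of 5: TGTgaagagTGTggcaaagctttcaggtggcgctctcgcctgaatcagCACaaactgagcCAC
Zfp692 C2H2 finger, chr11:58311498-58311566, plus strand, exon 10 of 12: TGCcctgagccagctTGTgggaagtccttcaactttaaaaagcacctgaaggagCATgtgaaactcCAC
Zfp36 CCCH finger, chr7:28378158-28378217, minus strand, exon 2 of 2: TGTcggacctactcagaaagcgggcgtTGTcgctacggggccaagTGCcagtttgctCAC

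The members were mostly of low level. Their median mean was 3.83 FPKM, against 7.16 FPKM for all 12283 tested genes, and 159 of the 237 were under 5 FPKM while 23 reached 10 FPKM. At the edge of the rule, Zfp799, Zfp97 and Zfp691 lay just above a mean of 1 FPKM, and Zfp758 (0.995 FPKM), Zfp60 (0.995 FPKM) and Zfp446 (0.987 FPKM) just below it. Whole reads could be recovered for 234 of the members, and those had between 34 and 8910 reads in a library, with a median over members of 291 in their shallowest library.

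Zfp692, whose human counterpart ZNF692 is a transcriptional repressor, had the highest level of all members. It had 67.0, 70.2 and 70.5 FPKM in GSH libraries, against 85.4, 89.1 and 89.3 FPKM in WT libraries. Every GSH library was below every WT library, and the log2 change on the log2(FPKM + 1) scale was −0.34 ± 0.03 (SE; limma, adjusted p = 0.00179). Zfp598, an E3 ubiquitin ligase that in human cells recognises collided ribosomes, came next with 54.5, 60.2 and 56.9 FPKM in GSH and 61.8, 68.7 and 64.9 FPKM in WT. Its groups were close but did not overlap (−0.18 ± 0.05, limma, adjusted p = 0.0326), and the call was lost without WT 2, WT 3, GSH 1 or GSH 3 (highest adjusted p 0.0882). Zfp207, a microtubule- and Bub3-binding protein that loads Bub3 onto kinetochores, had 36.8, 37.2 and 37.4 FPKM in GSH against 46.1, 47.7 and 44.9 FPKM in WT. It fell by 0.31 on the log2 scale (limma, adjusted p = 0.00178), and its GSH libraries were closer to each other than its WT libraries.

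**Figure D1:**
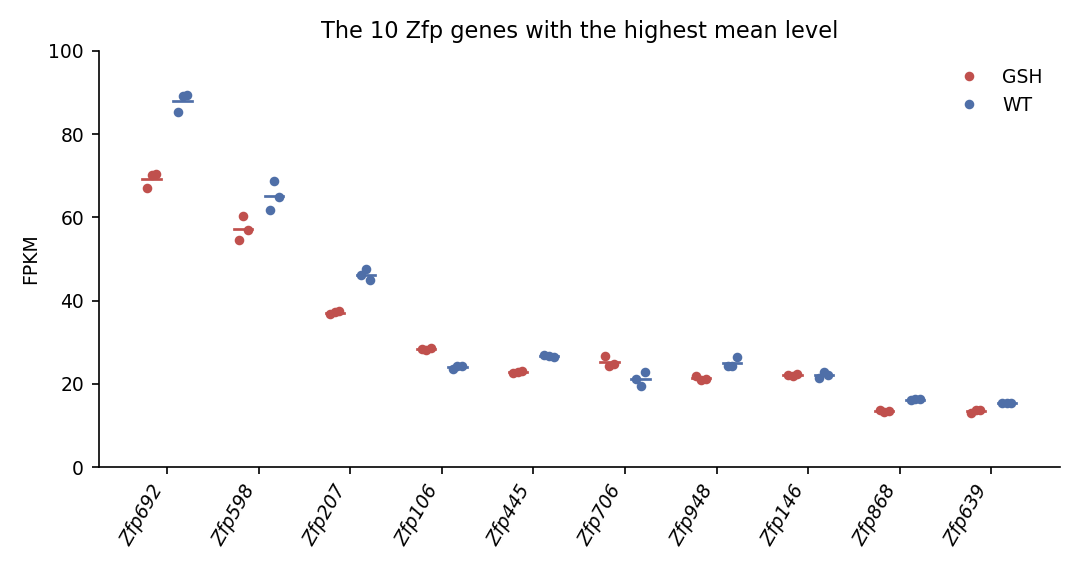
FPKM (vertical axis, starting at 0) of the 10 members with the highest mean over GSH and WT, with points for single libraries and short lines for group means. Of the 10, 7 were lower in GSH and 2, Zfp106 and Zfp706, were higher, while Zfp146 overlapped.

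The remaining abundant members went both ways. Zfp106, an RNA-binding protein needed to maintain mouse motor neurons, had 28.3, 28.2 and 28.7 FPKM in GSH and 23.6, 24.3 and 24.2 FPKM in WT, a rise of 0.23 (limma, adjusted p = 0.00217). Of its transcript's words of 50 bases, 25.2% also occur in other genes, most often in Gm26899, which overlaps it on the opposite strand. Zfp706, a small protein of 76 residues with 1 finger, averaged 25.3 ± 1.26 FPKM in GSH and 21.2 ± 1.64 FPKM in WT (SD, n = 3 each) and rose by 0.25 (limma, adjusted p = 0.0222), a call lost without WT 1, GSH 1 or GSH 3 (highest adjusted p 0.0619). Zfp445, a KRAB protein that maintains genomic imprints in mouse, had 22.5, 22.8 and 23.2 FPKM in GSH and 26.9, 26.8 and 26.4 FPKM in WT. Its fall was −0.22 ± 0.03 (limma, adjusted p = 0.00238). Zfp948 also fell, with 21.8, 20.9 and 21.2 FPKM in GSH and 24.3, 24.2 and 26.4 FPKM in WT. Zfp868 averaged 13.5 ± 0.162 FPKM in GSH and 16.2 ± 0.0978 FPKM in WT, and Zfp639 averaged 13.4 ± 0.438 FPKM in GSH and 15.3 ± 0.0604 FPKM in WT (SD, n = 3 each), and both fell. Zfp146, a protein made almost wholly of fingers, averaged 22.2 ± 0.188 FPKM in GSH and 22.1 ± 0.723 FPKM in WT, and its groups overlapped.

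In GSH against WT, 16 members were higher and 65 were lower at a limma adjusted p under 0.05, and 156 did not pass. That is 6.75% of the members higher and 27.4% lower, where 20.6% of all tested genes were higher and 16.4% lower, or 37.0% in either direction. The members' median log2 change was −0.08, against 0.02 for all tested genes, and 68.8% of the members had a negative change, against 45.9% of all tested genes. All 3 GSH libraries were above all 3 WT libraries for 34 members (14.3%; 29.0% of all tested genes) and below them for 99 members (41.8%; 23.5% of all tested genes). Changes were small, running between −0.58 and 0.36, with a median size of 0.22 among called members and 0.22 among all called genes. Without 1 library at a time, the count of lower members was 42 without WT 1, 41 without WT 2, 49 without WT 3, 52 without GSH 1, 42 without GSH 2 and 43 without GSH 3. The count of higher members in the same fits was 6, 9, 7, 10, 10 and 6. In these fits no member called in the full fit changed sign.

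**Figure D2:**
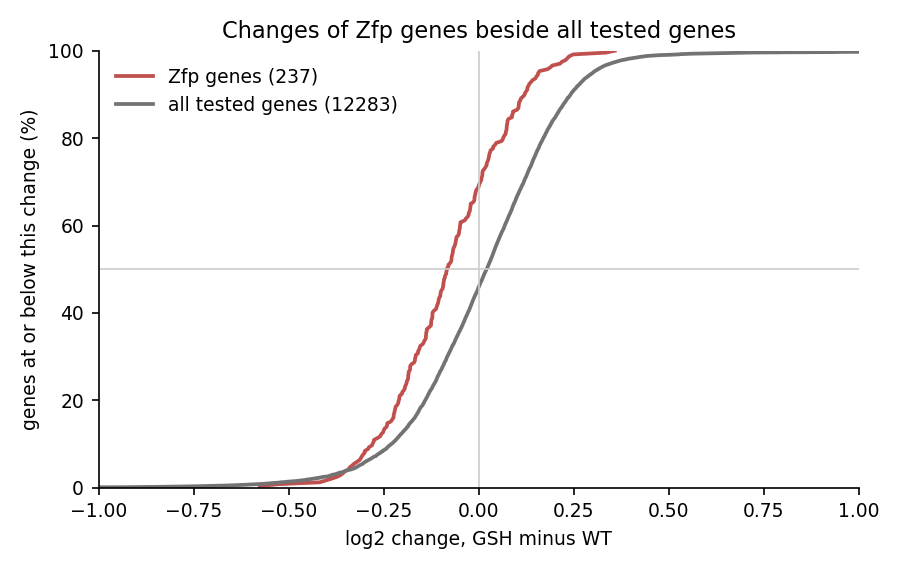
Cumulative share of genes (vertical axis, percent) at or below each log2 change of GSH minus WT (horizontal axis), for the 237 Zfp genes and all 12283 tested genes. The Zfp curve lies to the left over most of its range, with a median of −0.08 against 0.02.

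The same shift was seen in every GSH library and in the summed level. The members summed to 1254, 1244 and 1254 FPKM in the GSH libraries and to 1342, 1372 and 1342 FPKM in the WT libraries. Relative to the WT mean of each gene, the members' median was −0.07, −0.10 and −0.08 on the log2 scale in GSH 1, GSH 2 and GSH 3. It was 0.0, 0.02 and −0.02 in WT 1, WT 2 and WT 3. In bulk RNA, fewer cells that express a gene and less RNA per cell cannot be told apart. The lower share was also set beside genes of like level. Of members at 1 to 2 FPKM 22.8% were lower (8.99% of all tested genes in that range), at 2 to 5 FPKM 21.6% (12.4%), and at 5 to 15 FPKM 35.7% (17.7%). Of the 8 members at 15 FPKM or more, 5 were lower (22.3% of all tested genes in that range). The 6 members that reached 1 FPKM only in WT held 2 of the lower calls and the 2 that reached it only in GSH held none. Without these 8, 63 of 229 members (27.5%) were lower, and 22.4% of those at 1 to 2 FPKM, against 7.75% of all tested genes chosen the same way.

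Reads of mitochondrially encoded genes made up 6.26%, 5.88% and 6.03% of the reads in GSH 1, 2 and 3 and 8.7%, 8.54% and 8.38% in WT 1, 2 and 3. With the FPKM rescaled to totals without those genes, 9 members were higher and 82 lower, and the share of higher genes among all called genes was 42.4% in place of 55.7%. Among called members that share was 9.89% in place of 19.8%. Transcripts of secretory glands (6 odorant-binding and major urinary protein genes) summed to 1.29, 435 and 161 FPKM in GSH 1, 2 and 3 and to 1.69, 5.24 and 303 FPKM in WT 1, 2 and 3. With a term for WT 3, GSH 2 and GSH 3, the libraries with high sums, 10 members were higher and 46 lower. Epithelial markers of 4T1 (Epcam, Krt8, Krt18, Cdh1 and Krt7) were all present, with a sum of 1611 to 1666 FPKM in GSH and 1517 to 1587 FPKM in WT. Epcam, with 282 to 290 FPKM in GSH and 346 to 365 FPKM in WT, and Cdh1, with 203 to 210 FPKM in GSH and 220 to 230 FPKM in WT, lay below WT, and the 3 keratins lay above it. The sum of 8 leukocyte markers was 19.0 to 29.1 FPKM in GSH and 21.2 to 23.7 FPKM in WT.

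Of 236 members with a coding sequence that could be translated, 105 matched the KRAB pattern, with a median of 10 C2H2 fingers over all 236 and a maximum of 30, in Zfp236. Among the 105 with the KRAB pattern, 2 were higher and 36 (34.3%) lower, with a median change of −0.14 and 80.0% negative. Among the 131 without it, 14 were higher and 29 (22.1%) lower, with a median of −0.05 and 60.3% negative. Both medians lay below that of all tested genes (0.02). The KRAB members were of lower level (median 2.76 FPKM, against 4.48 FPKM without the pattern), and the shares are also given within ranges of level. At 1 to 2 FPKM, 10 of 39 KRAB members (25.6%) and 3 of 18 others (16.7%) were lower. At 2 to 5 FPKM the shares were 31.0% of 42 and 15.3% of 59, and at 5 FPKM or more 54.2% of 24 and 31.5% of 54. Of all tested genes in the same ranges, 8.99%, 12.4% and 19.8% were lower. With a looser pattern that took in 126 members, 41 with it (32.5%) and 24 of 110 without it (21.8%) were lower. Single libraries moved these counts. Without WT 1, WT 2, WT 3, GSH 1, GSH 2 or GSH 3 in turn, 22, 22, 26, 29, 22 and 24 of 105 KRAB members were lower. Of 129 to 131 others, 20, 19, 23, 23, 20 and 19 were lower, and of all tested genes 10.9% to 13.3%. The class without the pattern may hold unmatched KRAB boxes, since the pattern found only 3 of 11 Zkscan proteins. The difference between the classes was not tested.

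The 2 KRAB members that rose, Zfp568 and Zfp777, were named after their values were seen. Zfp568, which in mouse embryos represses a placental transcript of Igf2, had 7.04, 7.37 and 7.40 FPKM in GSH and 6.26, 6.80 and 6.22 FPKM in WT (0.16 ± 0.04, limma, adjusted p = 0.0292). Zfp777 had 9.23, 9.93 and 10.2 FPKM in GSH and 8.34, 8.65 and 9.06 FPKM in WT (0.16 ± 0.05, limma, adjusted p = 0.0413). Neither gene's groups overlapped, and each call was lost in 4 of the 6 fits that left out a library, with adjusted p up to 0.0906 for Zfp568 and 0.121 for Zfp777. Both calls were also lost on totals without mitochondrial genes (limma, adjusted p = 0.0628 and 0.0832), where 0 KRAB members were higher. Zfp777 lost its call with relative log expression rescaling (limma, adjusted p = 0.0623) and with voom (adjusted p = 0.0577) as well.

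By number of C2H2 fingers, the 7 members with none had a median of −0.02 (3 higher and 2 lower). Members with 1 to 4 fingers had a median of −0.01 (6 higher and 8 lower of 35), and those with 5 to 9 had −0.05 (5 and 18 of 75). Members with 10 to 14 fingers had a median of −0.09 (1 and 16 of 77), and those with 15 or more had −0.16 (1 and 21 of 42). Up to 14 fingers the lower share was between 20.8% and 28.6% in each class, where it was 16.4% over all tested genes. The differences between the classes were not tested. Finger number and KRAB box go together, and within KRAB members the lower share was 35.6% of the 73 with 10 or more fingers and 31.2% of the 32 with fewer. Among members without the KRAB pattern it was 23.9% of 46 and 21.2% of 85. These splits pool members with 10 to 14 fingers and those with 15 or more, whose lower shares differed most. The SCAN domain, a dimerization domain, was matched in 9 members. Zfp445, Zfp263, Zfp202, Zfp397 and Zfp369 were lower (55.6% of the 9, against 16.4% of all tested genes), and none was higher. Zfp445, Zfp202 and Zfp369 also matched the KRAB pattern, so their falls are counted in that class as well. Zfp202 lost its call in 5 of the 6 fits that left out a library (adjusted p up to 0.0857).

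**Figure D3:**
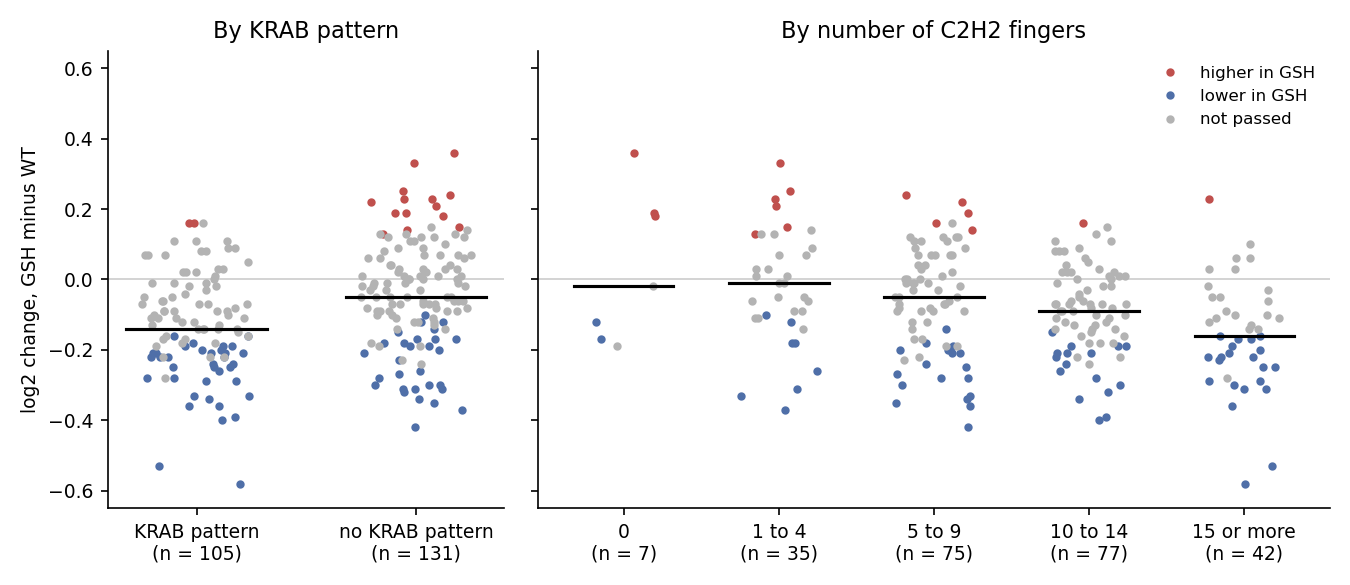
Log2 change of GSH minus WT (vertical axis) for single members, by KRAB pattern (left) and by number of C2H2 fingers (right), with black lines at the class medians and colours for the limma call. Medians were −0.14 with the KRAB pattern and −0.05 without it, and −0.01, −0.05, −0.09 and −0.16 from 1 to 4 up to 15 or more fingers.

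The largest falls on the log2(FPKM + 1) scale were those of the KRAB genes Zfp760 and Zfp7, whose boxes and fingers are printed above. The place of Zfp7 depended on that scale. With a pseudocount of 0.1, Zfp760 had −0.69, Zfp658 −0.60 and Zfp7 −0.58. With voom on recovered reads they had −0.71, −0.66 and −0.61. Zfp760 (chr17:21707741-21725636, 16 fingers) had 3.89, 3.24 and 3.91 FPKM in GSH and 5.88, 6.02 and 6 FPKM in WT. Its highest GSH value was far below its lowest WT value, and the change was −0.58 ± 0.06 (limma, adjusted p = 0.00215). Zfp7 (chr15:76879259-76892395, 16 fingers) had 6.95, 7.09 and 6.92 FPKM in GSH and 10.2, 10.8 and 10.5 FPKM in WT, a change of −0.53 ± 0.03 (limma, adjusted p = 0.0012). Of its transcript's 50-base words, 20.6% also occur in other genes, most often in the overlapping model Gm49527 on the same strand, so its reads could be split. Zfp101 (−0.40), Zfp983 (−0.39), Zfp658 (−0.36) and Zfp707 (−0.36), all with the KRAB pattern, fell as well. Zfp658 was near the minimum level, with 1.06, 0.894 and 1.16 FPKM in GSH and 1.55, 1.64 and 1.67 FPKM in WT.

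Outside the KRAB class, Zfp397, a SCAN zinc-finger protein, had 3.65, 3.25 and 3.65 FPKM in GSH and 5.19, 5.04 and 4.88 FPKM in WT (−0.42 ± 0.05, limma, adjusted p = 0.00247). Zfp511 averaged 9.9 ± 0.619 FPKM in GSH and 13.1 ± 1.02 FPKM in WT (SD, n = 3 each, log2 change −0.37), and 14.3% of its 50-base words lie in other genes, most often in Tubgcp2, which overlaps it on the opposite strand. Zfp579 averaged 4.58 ± 0.206 FPKM in GSH and 6.13 ± 0.537 FPKM in WT, a change of −0.35. Zfp692, described above, completes the 10 largest falls.

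**Figure D4:**
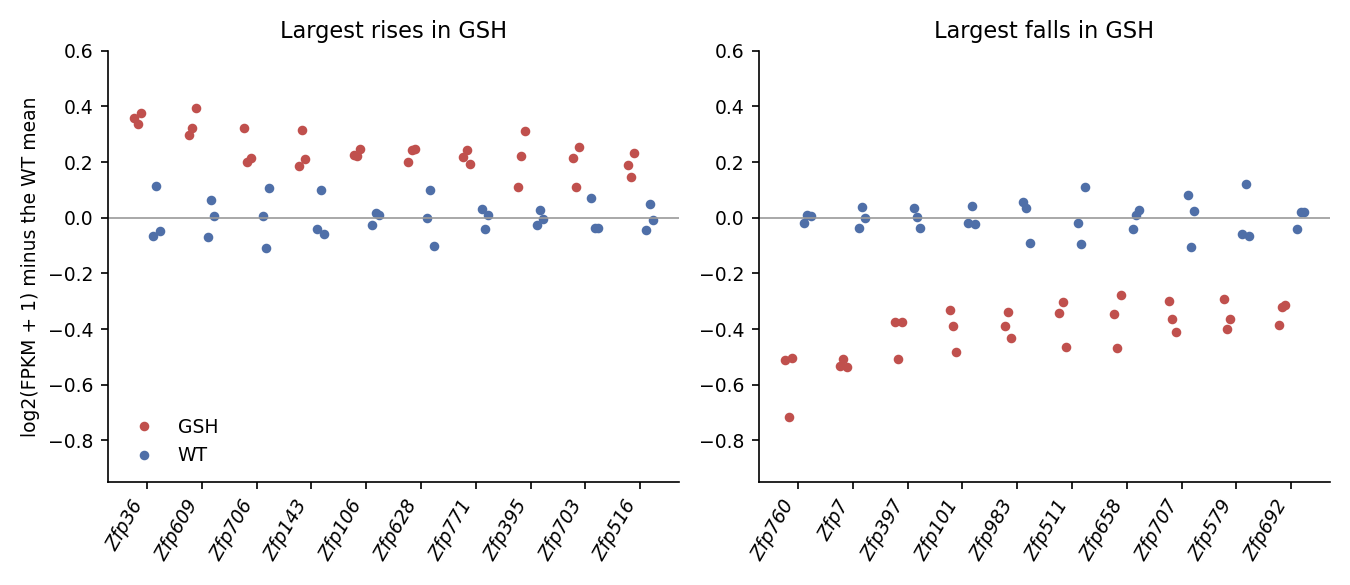
log2(FPKM + 1) of single libraries minus the WT mean of the same gene (vertical axis), for the 10 largest rises (left) and 10 largest falls (right) among called members whose groups did not overlap. The rises reach 0.36 for Zfp36 and the falls −0.58 for Zfp760.

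Members with established silencing roles did not all pass. Zfp57, a KRAB protein that with Zfp445 protects imprints, had 4.58, 4.59 and 4.60 FPKM in GSH and 6.06, 6.19 and 5.80 FPKM in WT. Its GSH libraries were nearly equal and all below WT (−0.33 ± 0.03, limma, adjusted p = 0.00209). Zfp809, which in mouse recognises the proline tRNA primer-binding site of integrated retroviruses, had 5.94, 5.56 and 5.47 FPKM in GSH and 5.49, 6.42 and 6.03 FPKM in WT. Its groups overlapped (−0.07 ± 0.06, limma, adjusted p = 0.391). Its neighbours Zfp599 (−0.19) and Zfp810 (−0.21) fell, with calls lost in 4 and 5 of the 6 fits that left out a library (adjusted p up to 0.0739 and 0.125).

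Among the other members with known roles, Zfp281, a regulator of pluripotency in mouse stem cells, had 4.46, 4.60 and 4.69 FPKM in GSH and 5.62, 5.82 and 5.60 FPKM in WT. It fell by 0.26 (limma, adjusted p = 0.00343). Zfp91, an E3 ligase of noncanonical NF-κB signalling, averaged 9.28 ± 0.819 FPKM in GSH and 8.99 ± 0.215 FPKM in WT. Zfp217, whose human counterpart is amplified in breast cancer, averaged 7.9 ± 0.178 and 8.05 ± 0.385 FPKM in GSH and WT. Zfp148, a promoter-binding factor, averaged 5.39 ± 0.162 FPKM in GSH and 5.07 ± 0.184 FPKM in WT (SD, n = 3 each). For these 3 genes the groups overlapped and limma's adjusted p was 0.648, 0.676 and 0.183.

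The largest rise was that of Zfp36, or tristetraprolin, which binds AU-rich elements in mRNAs and recruits the deadenylase complex. Zfp36 (chr7:28376784-28380253, minus strand) had 5.23, 5.13 and 5.30 FPKM in GSH and 3.64, 4.25 and 3.70 FPKM in WT. The GSH libraries were nearly equal and all above WT (0.36 ± 0.05, limma, adjusted p = 0.00478). Gm44710 overlaps exons of Zfp36 on the opposite strand. Zfp609, a partner of the cohesin loader Nipbl in mouse neural progenitors, had 10.5, 10.7 and 11.3 FPKM in GSH and 7.91, 8.78 and 8.40 FPKM in WT (0.33 ± 0.05, limma, adjusted p = 0.00358). Zfp143, a promoter-binding activator, had 10.6, 11.7 and 10.8 FPKM in GSH and 8.92, 9.93 and 8.79 FPKM in WT, with a rise of 0.24 (limma, adjusted p = 0.0172). That call was lost without WT 1 or WT 3 (highest adjusted p 0.059).

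Zfp703, whose human counterpart is amplified in luminal breast cancer, had 4.81, 4.40 and 4.96 FPKM in GSH and 4.26, 3.88 and 3.88 FPKM in WT (0.19 ± 0.05, limma, adjusted p = 0.0321). The GSH values began only just above the highest WT value, and the call was lost without WT 2, WT 3, GSH 1 or GSH 3 (highest adjusted p 0.0953) and on totals without mitochondrial genes (0.0601). Of its 50-base words, 11.7% lie in other genes, most often in Gm45371, which overlaps it on the opposite strand. Zfp503, its paralogue, had 11.7, 10.7 and 11.7 FPKM in GSH and 10.2, 9.48 and 10.0 FPKM in WT (0.18 ± 0.05, limma, adjusted p = 0.0249). It was named after its values were seen, and its call was lost without WT 2, WT 3, GSH 1 or GSH 3 (highest adjusted p 0.0791). That call was also lost on totals without mitochondrial genes (0.0538). Zfp628 (0.23), Zfp771 (0.22), Zfp395 (0.21) and Zfp516 (0.19), the last a regulator of brown fat in mouse, also rose. In fits that left out each of the 6 libraries in turn, the call was lost in 5 for Zfp628, 5 for Zfp395, 2 for Zfp516 and 0 for Zfp771, with adjusted p up to 0.0768, 0.0859, 0.0554 and 0.0171. The other rises, likewise named after their values were seen, were those of Zfp622 (0.13), which matures the large ribosomal subunit, Zfp358 (0.14) and Zfp277 (0.15). Their calls were lost in 5, 5 and 6 of the 6 fits, with adjusted p up to 0.0924, 0.0788 and 0.134. All were also lost on totals without mitochondrial genes (limma, adjusted p = 0.0806, 0.0651 and 0.0841).

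Neighbouring members were compared in the order of protein-coding genes in the RefSeq table, and 34 runs of adjacent members held 90 of the 237. Of the 90, 25 were lower (27.8%) and 4 higher, with a median of −0.07. Of the 147 that stood alone, 40 were lower (27.2%) and 12 higher, with a median of −0.09. Over all tested genes, 16.4% were lower and 20.6% higher, with a median of 0.02. No run held calls in both directions, but with only 4 higher calls among the 90 there was little room for one. In a run of 6 KRAB genes on chromosome 17, Zfp54 (−0.34), Zfp53 (−0.19), Zfp948 (−0.22) and Zfp983 (−0.39) fell, while Zfp51 had 0.03 and Zfp52 −0.15 without passing. In a run of 6 on chromosome 6, Zfp398, Zfp282, Zfp212, Zfp956, Zfp777 and Zfp746, only Zfp777 passed and none was lower. In 3 runs, each a pair of KRAB genes, both members fell: Zfp87 and Zfp748 on chromosome 13, Zfp81 and Zfp101 on chromosome 17, and Zfp626 and Zfp59 on chromosome 7. Of these, Zfp101 kept its call in all 6 fits that left out a library, Zfp748, Zfp81 and Zfp59 lost it in 5 and Zfp87 and Zfp626 in 6, with adjusted p up to 0.129. In the run on chromosome 17, Zfp54 lost it in 4 and Zfp53 in 2, and Zfp948 and Zfp983 kept it. Sequence shared with other genes limits such values. Counted against all other genes, 56 members had 10% or more of their transcript's 50-base words in another gene, 7 had 50% or more, and 88 had none. These counts take in genes that overlap a member on either strand as well as copies elsewhere. Zfp90, for example, shared 70.3%, most often with Gm26786, which overlaps it on the opposite strand. Zfp960 and Zfp97 had the highest shares, 74.0% and 73.4%, each most often with the other, and neither passed.

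RefSeq promoter windows (250 bases before to 50 after the start, GRCm38.p6) were found for 197 of the members, with 244 windows. CCAAT, on either strand, was in 46.7% of them and in 38.2% of 21263 windows of all protein-coding genes. The ETS motif CCGGAAGT was in 10.2% and 5.1%, and GGGCGG in 48.4% and 46.2%. TGACTCA (4.1% and 4.7%), TGACGTCA (2.9% and 2.2%), CACGTG (6.1% and 7.8%) and the serum response element (1.2% and 1.5%) completed the search. The median GC content was 55.8% and 56.3%. The 250 bases before the RefSeq start of the members with the largest rise and the largest fall are given with matched motifs in capitals. In Zfp36 the run of capitals holds GGGCGG on the opposite strand, beginning 63 bases before the start, joined to a serum response element beginning 58 bases before it, and the 2 overlap by 1 base. The GENCODE model of Zfp36 starts upstream of the RefSeq start, so that the window lies inside its coordinates given above. In Zfp760 the capitals mark GGGCGG and, on the opposite strand, CCAAT.
Zfp36 promoter, chr7:28379229-28379478, minus strand, GRCm38.p6: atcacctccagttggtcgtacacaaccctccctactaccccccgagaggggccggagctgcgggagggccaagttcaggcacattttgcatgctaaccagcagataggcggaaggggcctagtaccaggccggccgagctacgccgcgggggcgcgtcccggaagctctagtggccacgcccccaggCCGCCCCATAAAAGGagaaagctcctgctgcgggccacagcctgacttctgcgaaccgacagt
Zfp760 promoter, chr17:21707491-21707740, plus strand, GRCm38.p6: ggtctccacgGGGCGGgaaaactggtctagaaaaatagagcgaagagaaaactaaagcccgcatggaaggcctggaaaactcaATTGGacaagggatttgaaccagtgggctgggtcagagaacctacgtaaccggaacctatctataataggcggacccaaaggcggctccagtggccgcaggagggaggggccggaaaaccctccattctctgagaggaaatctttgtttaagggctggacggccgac

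Genes that work with the members were read from fixed lists and are given by their counts beside the 20.6% higher and 16.4% lower of all tested genes. Of 28 tested genes of the Trim28 corepressor and heterochromatin machinery, 7 were higher and 2 lower, with a median change of 0.08. Setdb1, the methyltransferase that Trim28 recruits, was among the lower genes, with 18.7 ± 0.221 FPKM in GSH and 22.2 ± 0.27 FPKM in WT (SD, n = 3 each, limma, adjusted p = 0.00202). Gatad2a, Rbbp7 and Rbbp4, subunits of the nucleosome remodelling and deacetylase complex, rose by 0.27, 0.23 and 0.23. Trim28 itself, named for its role after its values were seen, had 104 ± 1.9 FPKM in GSH and 108 ± 1.51 FPKM in WT and did not pass (limma, adjusted p = 0.127).

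Of 13 tested Zscan and Zkscan genes, 5 were lower and 1 higher, with a median of −0.08, and Zkscan3 (−0.45) and Zscan26 (−0.32) fell most clearly. Of 32 Zbtb genes, 5 were lower and 3 higher (median −0.03), with Zbtb48 at −0.44. Of 17 Zfp genes with letters after the digits, 4 were lower and 2 higher (median −0.05). Of 14 Krüppel-like and Sp genes, 8 were higher and 1 lower, with a median of 0.17. Klf6, an early-response factor, had 47.3 ± 2.26 FPKM in GSH and 28.7 ± 0.653 FPKM in WT (SD, n = 3 each), a rise of 0.70 (limma, adjusted p = 0.0012), and Klf10 was the gene that fell (−0.35). Of 32 CCCH genes that are not members, 7 were higher and 4 lower (median 0.08). Among relatives of Zfp36, Zfp36l2 rose to 49.8 ± 2.49 FPKM in GSH, against 41.4 ± 1.18 FPKM in WT. Zfp36l1 had 10.9 ± 0.972 FPKM in GSH and 10.5 ± 0.177 FPKM in WT and did not pass (limma, adjusted p = 0.562).

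Of 16 tested mRNAs known to be bound by Zfp36, a list that includes Zfp36 itself, 5 were higher and 1 lower, with a median of 0.04. Csf2, which encodes the cytokine GM-CSF, averaged 8.27 ± 0.72 FPKM in GSH and 4.53 ± 0.032 FPKM in WT (SD, n = 3 each), a rise of 0.74 (limma, adjusted p = 0.00161). Ptgs2, the inducible cyclooxygenase, averaged 359 ± 8.72 FPKM in GSH and 291 ± 11.7 FPKM in WT, a rise of 0.30, and Dusp1 rose by 0.42. Of 22 genes of the deadenylation and decapping machinery, 6 were higher and 3 lower (median 0.03), with Cnot1 at 0.30 and Pan3 at −0.31. On totals without mitochondrial genes this median was 0.0, with 5 higher and 5 lower.

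In the Cas9 and Ctrl table, which was normalised apart from the other, all 237 members were listed and 213 reached the minimum of 1 FPKM. No member and no gene passed in Cas9 against Ctrl (0.0% of 11407 tested genes, limma), and the smallest adjusted p of a member was 1. At an unadjusted p under 0.05 there was 1 member, Zfp335 (9.17, 9.52 and 9.04 FPKM in Cas9 and 12.3 FPKM in Ctrl 3), and 210 genes in all. With 1 Ctrl library, the spread comes from the Cas9 libraries alone. All 3 Cas9 libraries were above Ctrl 3 for 40 members (18.8%; 20.1% of all tested genes) and below it for 51 (23.9%; 22.5% of all tested genes). The members' median log2 change was −0.03, against −0.01 for all tested genes, and the range ran between −0.41 and 0.51. Among KRAB members it was −0.04 and among those without the pattern −0.01. The members summed to 1585, 1556 and 1548 FPKM in the Cas9 libraries and to 1555 FPKM in Ctrl 3.

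The genes at both ends of the GSH comparison are given in Cas9 and Ctrl side by side. Zfp760 had 2.22, 1.94 and 2.09 FPKM in Cas9 and 2.13 FPKM in Ctrl 3. Zfp7 had 6.39, 6.49 and 5.52 FPKM in Cas9 and 4.83 FPKM in Ctrl 3, and all Cas9 values were above it (0.29 ± 0.17, not passed). Zfp36 had 23.9, 48.5 and 32.4 FPKM in Cas9 and 29.4 FPKM in Ctrl 3, so that its Cas9 libraries lay on both sides of Ctrl 3.

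The order of levels differed between the tables, as a description, since they were scaled separately and listed other gene models. Spearman's rho of the member means between tables was 0.65 over 237 genes. Zfp207 led in Cas9 and Ctrl, with 142, 153 and 168 FPKM in Cas9 and 147 FPKM in Ctrl 3. Zfp36, in rank 94 of the GSH and WT table, was in rank 3, and Zfp703, in rank 101 there, was in rank 8 with 27.3, 31.9 and 25.9 FPKM in Cas9 and 27.8 FPKM in Ctrl 3. Zfp692, in rank 1 of the GSH and WT table, was in rank 71 with 7.02, 5.0 and 7.88 FPKM in Cas9 and 5.6 FPKM in Ctrl 3. Zfp948 was in rank 125 in place of 7, and Zfp57 in rank 235 in place of 72, with 0.546, 0.298 and 0.299 FPKM in Cas9 and 0.271 FPKM in Ctrl 3. The cells behind the tables differed in their markers: the 8 leukocyte markers summed to 2244 to 5441 FPKM in Cas9 and 4624 FPKM in Ctrl 3, and the 4 fibroblast markers to 78.8 to 147 FPKM in Cas9 and 120 FPKM in Ctrl 3. In GSH and WT libraries the fibroblast sum was 2.44 to 3.03 FPKM. The part of these markers in the order of levels was not tested.

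**Figure D5:**
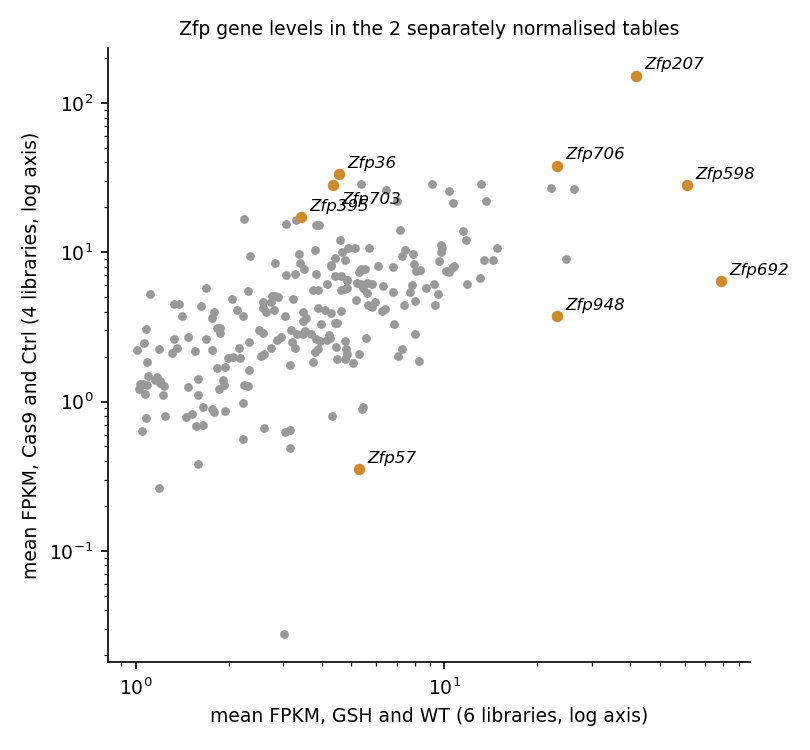
Mean FPKM of each member in Cas9 and Ctrl (4 libraries, vertical log axis) against that in GSH and WT (6 libraries, horizontal log axis), with 9 members named. Zfp36, Zfp703 and Zfp395 lie high for their GSH and WT level, and Zfp692, Zfp948 and Zfp57 lie low.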

How the data were processed

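The deposited values were taken as FPKM, from the values themselves, since neither labels nor headers state a unit. The authors tabulated GSH and WT libraries by Ensembl identifier and Cas9 and Ctrl libraries by symbol, and each table was tested apart. Build mm8 and the tools HTSeq (0.6.0), HISAT2 (2) and Bowtie2 (2.2.3) stand in the submitters' processing notes without their roles. The files give no coordinates. Those printed are from GENCODE M21 and RefSeq. Whole reads, within 0.15 read, were recovered for 98.74% to 98.85% of GSH and WT values from GENCODE M21 exon lengths and served for depth, mitochondrial shares and a voom alternative. Library totals of Cas9 and Ctrl come from the commonest step of 1 read. At that step only 32.51% to 33.2% of their values came out whole, so these totals are uncertain.

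Genes with a mean of 1 FPKM or more over the libraries compared were tested with limma 3.58.1 (R 4.3.3; lmFit, eBayes with a trend) on log2(FPKM + 1), with Benjamini-Hochberg adjustment over all tested genes and a threshold of 0.05. Fold changes on that scale understate those of low genes. The fits were tested on drawn counts with known changes. Alternatives were another pseudocount, other filters, rescalings, voom, a replicate block, a term for secretory transcripts and leaving out libraries.

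Domains were matched as letter patterns (KRAB with at most 2 letters off, 3 in the looser form) in translated GENCODE coding sequences, in place of the RefSeq proteins first planned. Of 11 Zkscan proteins, whose name stands for both domains, 3 matched KRAB (5 in the looser form) and 11 SCAN. The KRAB pattern thus missed most of them, and members without the pattern may still hold a KRAB box. Of 17 Klf proteins none matched KRAB and 17 had C2H2 fingers, and of 40 Zbtb proteins 1 matched KRAB. A member's transcript with the longest coding sequence was compared in words of 50 bases with all other GENCODE genes. Strand use in counting is not given in the sources used here, so reads from overlapping antisense genes cannot be told apart.

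Named members are the 10 highest, the 10 largest rises and 10 largest falls that passed without overlap, 10 with known roles, those at the edge of the rule, and runs of neighbours. Members and lists were chosen with earlier results of these data known.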

Additional observations from a re-analysis of the deposited data

How the results depend on the processing

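Of 65 lower and 16 higher members, none changed direction under any alternative. Counts of higher and lower members were 5 and 36 with no filter, 9 and 82 on totals without mitochondrial genes, 10 and 46 with the secretory term, and 16 and 93 with voom on recovered reads. The lower share of all tested genes in those fits was 4.51%, 20.3%, 13.1% and 20.9%, against 16.4%. The fit with a replicate block gave 12 higher and 50 lower members. Over all tested genes that fit gave 2145 higher and 1722 lower, against 2533 and 2014 in the full fit. Same-numbered GSH and WT libraries had correlations of deviations of 0.48, −0.11 and 0.21, so the numbers were not taken as pairs. With WT 3, GSH 2 and GSH 3 alone, the members' median was −0.06, against 0.02 for all tested genes. With WT 1, WT 2 and GSH 1 alone it was −0.09, against 0.02. These fits hold 3 libraries, with 1 of them alone in its group, so only their medians are given. Leaving out 1 library gave 6 to 10 higher and 41 to 52 lower members (17.3% to 22.0%, against 10.9% to 13.3% of all tested genes). Medians in these fits ran from −0.10 to −0.07. The median was −0.10 with a pseudocount of 0.1, −0.10 with relative log expression rescaling, −0.12 without mitochondrial genes and −0.12 with voom. That of all tested genes was 0.02, 0.0, −0.01 and 0.0 in the same fits, against 0.02. Members whose sign changed numbered 18 without mitochondrial genes, 11 with relative log expression rescaling, 10 with voom, 8 to 14 without 1 library, and 25 and 22 in the fits of 3 libraries, and none of them passed in either fit. Of those named, Zfp146 had −0.03 on totals without mitochondrial genes, −0.01 with relative log expression rescaling, −0.01 with voom and −0.02 to 0.03 without 1 library. Zfp217 had −0.05 to 0.01 without 1 library and 0.01 in WT 3, GSH 2 and GSH 3 alone, and Zfp91 had −0.02 to 0.10 without 1 library. Of 47 called members that the text names, 23 kept their call in all alternatives but the fits of 3 libraries and 24 lost it in at least 1, among them Zfp628 (adjusted p 0.0503) with the replicate block. In Cas9 against Ctrl, no alternative called a member, and the median was −0.05 to 0.0 without 1 Cas9 library, the last without Cas9 3. A minimum of 0.5 FPKM gave 267 members and of 2 FPKM 180. Depth limits the members with few reads.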
